A study of Mus musculus with 24 samples.

Results

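Gene expression was compared between the epididymis and the vas deferens at embryonic day 16.5 (E16.5), in male mice of the CD1 strain. The comparison rests on 4 of the 24 Affymetrix arrays of the series, chosen by the tissue and the age in their labels: 2 arrays of epididymis and 2 of vas deferens, hybridised with total RNA. The other 20 arrays hold the efferent duct at all 4 ages, and the epididymis and vas deferens at E14.5, at E18.5 and on postnatal day 1 (P1). All groups share the strain and the sex, the embryos came from pregnant CD1 females, and the labels name no mutation and no treatment. They do not say whether an array is 1 animal or a pool, so the p-values rest on a spread among arrays that may be technical. A value is the log2 of a gene's deposited ratio to its own median over the 24 arrays, where 0 is that median and 1 is 2-fold above it. Such ratios hold no level, so the tissue labels could be checked only through differences between arrays, and neither the presence nor the absence of a defining marker can be read from them.

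The epididymis and the vas deferens form from neighbouring stretches of the Wolffian duct, an epithelial tube that androgen from the fetal testis maintains. The epididymis arises from the cranial stretch and coils, while the vas deferens arises from the caudal stretch, stays straight and gains a thick muscle coat, and signals from the surrounding mesenchyme instruct the epithelium of each segment. Position along the duct is marked by HOX transcription factors, whose genes lie in clusters in the order in which they act along the body axis, so that low-numbered paralogues act toward the head and high-numbered ones toward the tail.

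In limma, 689 of 18193 genes (3.79%) differed between the segments at E16.5 at an adjusted p under 0.05, and these are named as called below. Of them, 357 (1.96% of the genes) were higher in the epididymis and 332 (1.82%) were higher in the vas deferens, and 231 differed by 2-fold or more, 116 and 115 in each direction. The median difference over all genes was 0.00 on the log2 scale. Values of the 2 groups did not overlap for 9842 genes (54.1%), and for each of the 689 called. With any 1 of the 4 arrays left out, 357 to 427 genes were called, and 278 of the 689 were called in all 4 such fits (151 higher in the epididymis, 127 in the vas deferens).

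The 4 arrays lay closer together than the other 20 in most of their control probe sets. The log2 difference between the 5' and 3' probe sets of added RNAs was 0.33 to 0.46 in them, against -1.20 to 0.35 in the other 20, and for Gapdh it was -0.09 to 0.02 against -2.94 to 0.19. These Gapdh values were split by segment, at 0.02 and 0.00 in the epididymis and -0.09 and -0.06 in the vas deferens. So were those of the added RNAs, at 0.46 and 0.41 against 0.33 and 0.36, and of Actb, at 0.10 and 0.07 against 0.12 and 0.12. The interquartile range of an array's log2 ratios was 0.22 and 0.23 in the epididymis and 0.26 and 0.26 in the vas deferens. The mean log2 ratio of the hybridisation controls was split too, at -0.26 and -0.18 in the epididymis and 0.19 and 0.20 in the vas deferens (-0.88 to 0.31 in the other 20). The part of any of these in the differences was not tested. Replicates correlated across genes at r of 0.814 and 0.843, where the other pairs spanned 0.383 to 0.924.

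The leading differences in the epididymis were those of Hox C genes, of Foxl2os and of Irs4, and those in the vas deferens were of Nts, Hoxd13 and the Hoxa11 locus. The 20 largest called differences toward the epididymis ran from 3.47-fold (Hoxa7) to 15.1-fold (Hoxc8), and 18 of the 20 were called whichever array was left out. The exceptions were Lcn2 and Stk26. Toward the vas deferens the 20 largest ran from 4.12-fold (Nrcam) to 27.7-fold (Nts), and 19 of the 20 were called in every such fit, Anp32a being the exception. In all 20 of the latter genes the vas deferens arrays were the ones farther from the series median, against 10 of the 20 leading epididymis genes. Over all called genes, the vas deferens was the one farther from the median in 88.3% of the calls toward it and in 61.6% of those toward the epididymis.

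**Figure D1:**
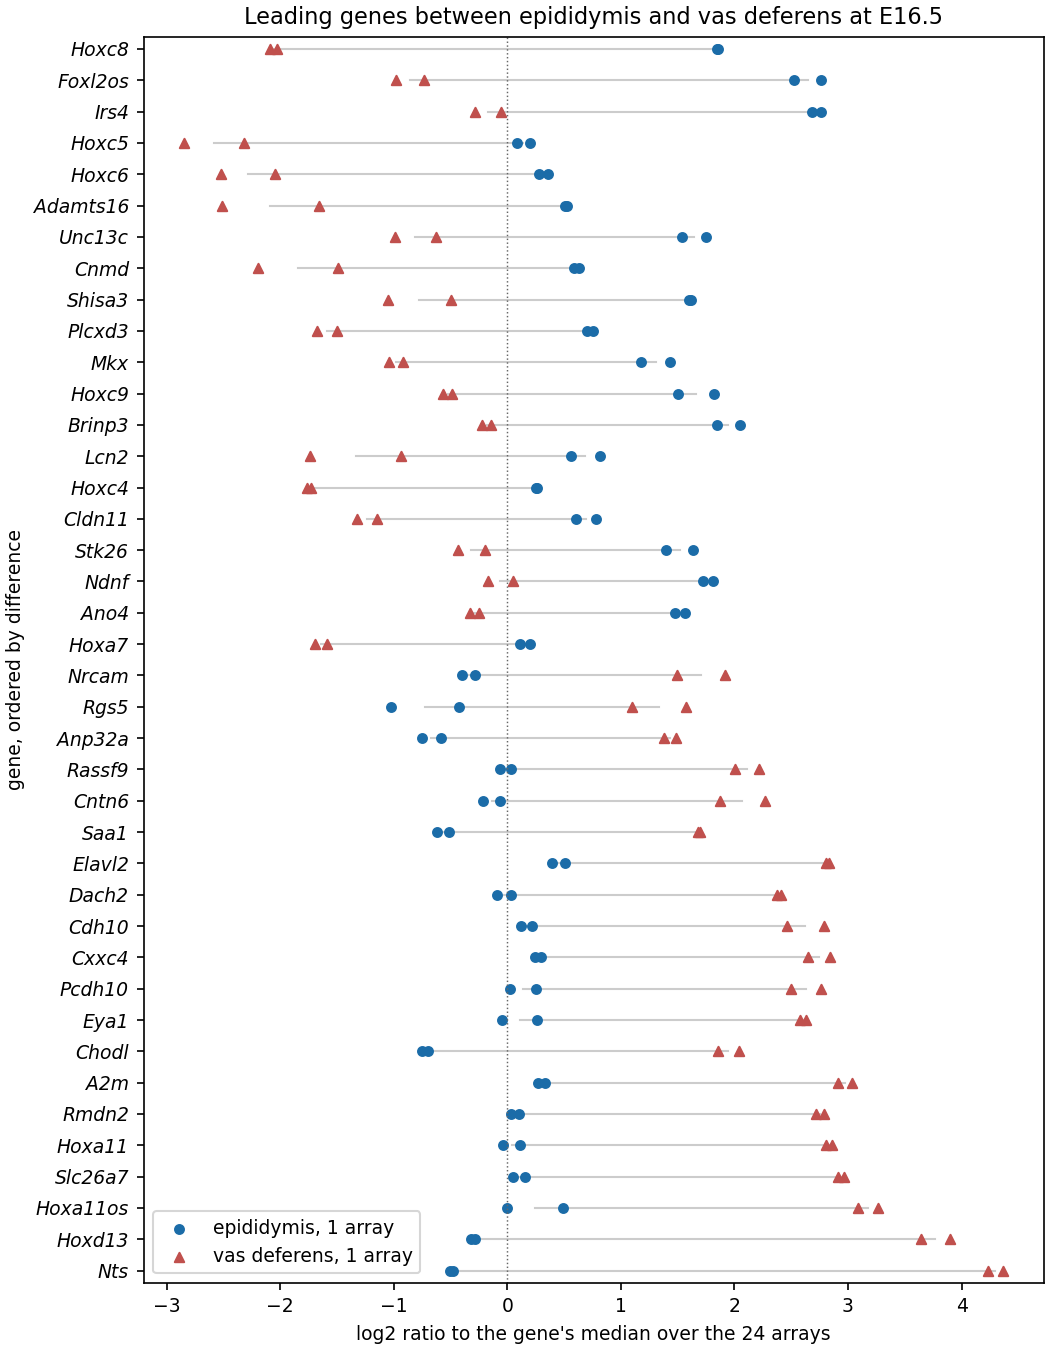
Log2 ratio of each array (x axis) for the 20 genes with the largest called difference in each direction (y axis), circles for the 2 epididymis arrays, triangles for the 2 vas deferens arrays and a grey line between the group means. For Nts the vas deferens arrays lie at 4.36 and 4.23 and the epididymis arrays at -0.48 and -0.51, while for Hoxc8 the order is turned, with the epididymis at 1.85 and 1.86 and the vas deferens at -2.09 and -2.03.

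Nts, which encodes the peptide neurotensin, a hormone of the gut and a transmitter in the brain, showed the largest difference of all 18193 genes. Its log2 ratio was 4.36 and 4.23 in the vas deferens arrays and -0.48 and -0.51 in those of the epididymis. Of the 4, only the vas deferens arrays stood above the series median, and epididymis minus vas deferens was -4.79 ± 0.28 (SE) on the log2 scale, or 27.7-fold (adjusted p = 8.88e-09). The efferent duct arrays of the same age lay at -0.08 and -0.25. They stand apart in control probe sets, with hybridisation controls at -0.51 and -0.88, so their values are given without a test. The stretch of 250 bases before the start of Nts is shown because AP-1 and cyclic AMP response elements are known to act on this gene. It lies at chr10:102490419-102490668 on the minus strand (RefSeq, GRCm38.p6). Capitals mark TGACTCA, the AP-1 site, and TGACG, the core of the cyclic AMP response element, both found here on the strand opposite to the gene, 207 to 201 and 166 to 162 bases before the start.

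Nts: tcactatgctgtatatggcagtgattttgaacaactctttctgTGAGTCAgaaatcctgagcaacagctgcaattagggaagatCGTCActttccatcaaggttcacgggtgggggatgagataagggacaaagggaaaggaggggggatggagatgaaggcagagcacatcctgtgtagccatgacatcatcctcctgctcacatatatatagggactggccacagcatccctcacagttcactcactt

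Of 32851 promoter windows of this length, 4.46% held TGACTCA and 17.8% held TGACG on either strand. Among the leading genes of the vas deferens, 16 had a window, of which 1 held TGACTCA and 5 held TGACG. Among those of the epididymis, 13 had a window, with 0 and 1. Binding at these letters was not measured.

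HOX genes divided the segments by position. Of the 19 anterior and central HOX genes measured (paralogue groups 1 to 8), 10 were higher in the epididymis and 0 in the vas deferens, with a median log2 difference of 0.53 (7 of the 10 whichever array was left out). The 14 posterior genes (groups 9 to 13) were divided, with 3 higher in the epididymis, 6 higher in the vas deferens and a median of -0.19 (2 of the 3 and 5 of the 6 in every such fit). These genes are known for their order along the duct, and they were listed with earlier results of these data known.

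**Figure D2:**
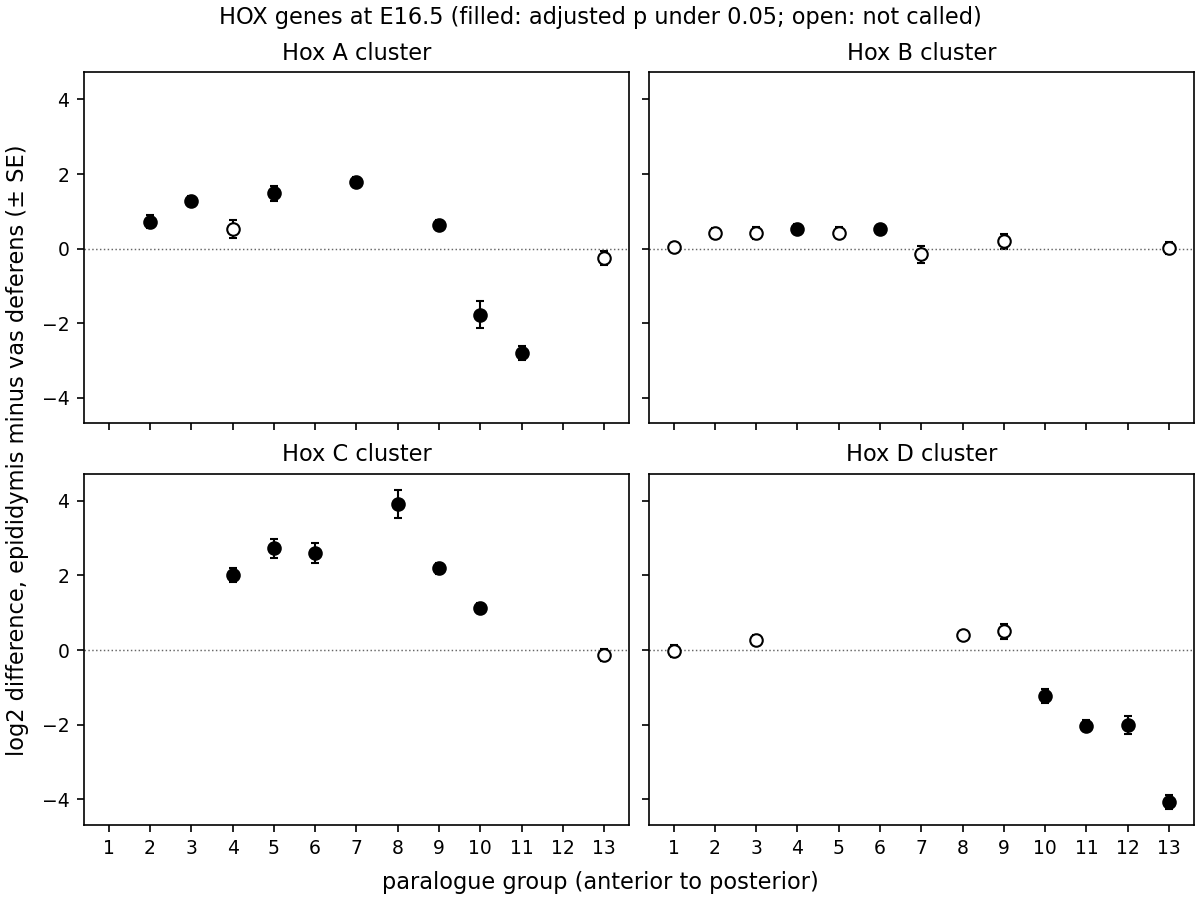
Log2 difference between epididymis and vas deferens at E16.5 (y axis, ± SE of the limma fit) by paralogue group (x axis) in each HOX cluster, filled where called and open where not. In cluster A the sign turns between Hoxa9 (0.63) and Hoxa10 (-1.76), cluster C is positive up to Hoxc10 (1.12), and in cluster D the called genes are Hoxd10 to Hoxd13, all negative.

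In the Hox C cluster, 6 of 7 measured genes were higher in the epididymis, and the median difference of 2.19 was the highest of the 4 clusters. Hoxc8, a central HOX gene, had values of 1.85 and 1.86 in the epididymis and -2.09 and -2.03 in the vas deferens, a gap of 3.91 ± 0.39, or 15.1-fold (adjusted p = 3.99e-06). Here the segments lay on opposite sides of the series median. The efferent duct arrays of the same age, which stand apart in control probe sets, lay between them at -0.18 and -0.41. Hoxc5 stood at 0.08 and 0.20 against -2.84 and -2.32 (6.60-fold). Hoxc6 stood at 0.28 and 0.36 against -2.52 and -2.05 (6.08-fold). In both of these genes it was the vas deferens that lay far below the median, with the epididymis just above it. Of the other probe sets of Hoxc6, the first gave 2.51 and the second 0.42, which was not called. Hoxc9 was 4.55-fold and Hoxc4 4.01-fold higher in the epididymis, and Hoxc10, a posterior gene, 2.17-fold. Hoxc13, the most posterior member, differed by -0.13 (adjusted p = 0.94).

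The Hox A cluster changed sign along its length. Hoxa2 (0.72), Hoxa3 (1.28), Hoxa5 (1.48), Hoxa7 (1.80) and Hoxa9 (0.63) were higher in the epididymis on the log2 scale, while Hoxa10 (-1.76) and Hoxa11 (-2.80) were higher in the vas deferens. Hoxa11, needed for the fate of the vas deferens, had values of 2.80 and 2.86 in that segment and 0.12 and -0.04 in the epididymis, or 6.94-fold (adjusted p = 3.70e-08). The efferent duct arrays, which stand apart in control probe sets, lay lower still, at -1.15 and -1.73. Its antisense transcript Hoxa11os followed, at 3.26 and 3.09 in the vas deferens against 0.00 and 0.49 in the epididymis (7.65-fold, adjusted p = 3.77e-07), although its other probe set differed by -0.11. Hoxa4 and Hoxa13 were not called (0.53, adjusted p = 0.37, and -0.25, adjusted p = 0.75). The call of Hoxa2 was lost whichever array was left out, and those of Hoxa9 and Hoxa10 without 1 array or another.

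The Hox D cluster held the strongest posterior signal. Hoxd13, the last gene of the cluster, which patterns the caudal urogenital tract, reached 3.90 and 3.64 in the vas deferens and stayed at -0.32 and -0.28 in the epididymis. The difference was -4.07 ± 0.18, or 16.8-fold (adjusted p = 1.56e-10), and a further probe set was also called, at -1.14. Hoxd11 was 4.07-fold, Hoxd12 4.02-fold and Hoxd10 2.35-fold higher in the vas deferens. The neighbour on their anterior side, Hoxd9, leaned the other way without passing the test (0.51, adjusted p = 0.26). Hoxd1, Hoxd3 and Hoxd8 were not called either, at -0.04, 0.26 and 0.40.

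The Hox B cluster differed little. Hoxb4 (0.54, or 1.45-fold) and Hoxb6 (0.52, or 1.43-fold) were higher in the epididymis, and both calls were lost whichever of the 4 arrays was left out. The 7 other members measured, from Hoxb1 to Hoxb13, lay between -0.16 and 0.43 and were not called. Of 8 HOX cofactors of the MEIS, PBX and PKNOX families, only Meis2 passed, at 0.98 and 0.88 in the vas deferens against 0.07 and 0.09 in the epididymis (1.80-fold, adjusted p = 0.000276).

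The windows before the start of HOX genes from both sides of this division are shown for comparison, from RefSeq, GRCm38.p6. They lie at chr2:74667975-74668224 (plus strand), chr6:52245811-52246060 (minus), chr6:52244993-52245242 (plus) and chr15:103034145-103034394 (plus). Capitals mark TATAAA, the TATA box, and TGACG on either strand.

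Hoxd13: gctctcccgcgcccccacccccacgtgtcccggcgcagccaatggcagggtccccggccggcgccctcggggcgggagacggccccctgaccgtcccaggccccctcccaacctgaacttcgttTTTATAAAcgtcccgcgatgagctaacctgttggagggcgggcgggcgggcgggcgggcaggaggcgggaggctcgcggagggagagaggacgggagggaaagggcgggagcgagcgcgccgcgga
Hoxa11: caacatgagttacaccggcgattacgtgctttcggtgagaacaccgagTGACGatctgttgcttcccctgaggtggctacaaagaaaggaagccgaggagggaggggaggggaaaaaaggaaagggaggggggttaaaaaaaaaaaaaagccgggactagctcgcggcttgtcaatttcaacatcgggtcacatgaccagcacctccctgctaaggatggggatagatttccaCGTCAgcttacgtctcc
Hoxa11os: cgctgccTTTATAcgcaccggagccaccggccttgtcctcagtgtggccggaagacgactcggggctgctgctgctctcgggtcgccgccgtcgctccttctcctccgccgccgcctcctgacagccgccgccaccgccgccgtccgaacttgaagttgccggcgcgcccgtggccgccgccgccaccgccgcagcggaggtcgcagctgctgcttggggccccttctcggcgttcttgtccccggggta
Hoxc4: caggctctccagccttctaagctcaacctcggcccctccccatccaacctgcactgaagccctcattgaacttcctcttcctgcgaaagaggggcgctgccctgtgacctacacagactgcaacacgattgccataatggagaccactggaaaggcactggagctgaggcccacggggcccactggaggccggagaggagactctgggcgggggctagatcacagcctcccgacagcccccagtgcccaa

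Hoxd13 held TATAAA on both strands, overlapping at 126 to 119 bases before its start. In Hoxa11, TGACG stood 202 to 198 and, on the opposite strand, 17 to 13 bases before the start. Hoxa11os held TATAAA on the opposite strand at 243 to 238, and none of the 3 motifs was found in Hoxc4. TATAAA was present in 12.4% of the 32851 windows, in 3 of 16 leading vas deferens genes and in 0 of 13 leading epididymis genes. The starts of Hoxa11 and Hoxa11os lie 567 bases apart on opposite strands and their transcripts run over each other; whether each probe set reads only its own strand was not tested.

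Beyond the HOX genes, 20 further transcription factors of the Wolffian duct were measured, and 3 were called, all higher in the vas deferens (median over the list -0.01). Eya1, a transcriptional cofactor and phosphatase of organ formation, stood at 2.58 and 2.63 in the vas deferens against -0.04 and 0.26 in the epididymis (5.65-fold, adjusted p = 1.39e-07). Dach2, of the same regulatory network, stood at 2.41 and 2.37 against -0.09 and 0.03 (5.34-fold). For both, the epididymis lay at the series median and the vas deferens well above it. Sox17 was 2.11-fold higher. Factors of the duct epithelium itself were not called, among them Pax8 (0.36), Emx2 (0.02), Gata3 (-0.32) and Lhx1 (0.56), and neither were Six2 (-0.02), Six4 (-0.21) and Eya2 (0.08).

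Of 29 mesenchymal transcription factors, 1 was higher in the epididymis and 3 in the vas deferens. Foxl2, known for its part in the ovary, had values of 1.39 and 1.48 in the epididymis and -0.28 and -0.31 in the vas deferens (3.31-fold, adjusted p = 3.82e-05). Its antisense neighbour Foxl2os stood at 2.53 and 2.76 against -0.98 and -0.73 (11.3-fold, adjusted p = 1.70e-05). Both were above the median in the epididymis and below it in the vas deferens, although another probe set of Foxl2 differed by -0.10 and it was not tested whether each reads only its own strand. Nr2f1, a nuclear receptor (2.14-fold), Irx3 (1.90-fold) and Foxc1 (1.99-fold) were higher in the vas deferens. Foxc1 lost the call whichever array was left out, and Irx3 lost it without vas deferens replicate 1. Isl1 differed by -1.29 without passing (adjusted p = 0.10). Among 9 steroid receptors and related genes, only Pgr, the progesterone receptor, was called, 1.54-fold higher in the vas deferens, a call lost whichever array was left out. The other probe sets of Pgr differed by 0.15 and -0.37 and were not called. Esr1 (-0.47) and Nr3c1 (0.67) were not called either. Mkx, a homeobox gene known from tendon, was 4.88-fold higher in the epididymis, with 1.44 and 1.18 against -1.04 and -0.92.

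WNT signals pass from ligands through Frizzled receptors, and R-spondins strengthen them. Of 45 genes of the pathway, 2 were higher in the epididymis and 7 in the vas deferens, with a median of 0.06. Both that were higher in the epididymis act outside the cell. Rspo1, an R-spondin, had values of -0.05 and 0.09 there and -1.12 and -1.33 in the vas deferens (2.38-fold, adjusted p = 6.53e-05). Wnt4, a ligand, had 1.11 and 1.10 against 0.13 and 0.14 (1.95-fold). For Rspo1 the vas deferens lay below the median, and for Wnt4 the epididymis lay above it. Toward the vas deferens stood the receptors Fzd1 (2.07-fold) and Fzd7 (1.89-fold), the inhibitor Nkd2 (1.99-fold), the ligands Wnt5b (-0.73) and Wnt2 (-0.55) and the nuclear factor Lef1 (-0.66). Cxxc4, which encodes the inhibitor Idax, led them at 2.84 and 2.64 against 0.30 and 0.24 (5.54-fold, adjusted p = 1.56e-10). The call of Nkd2 was lost whichever array was left out, and those of Wnt5b, Wnt2 and Lef1 without 1 array or another. Another probe set of Fzd7 differed by 0.02. Axin2, a target commonly read as a measure of the pathway, was not called (0.39, adjusted p = 0.42).

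Among 26 genes of FGF and GDNF signalling, 2 were higher in the epididymis and 3 in the vas deferens. Gdnf encodes a ligand that mesenchyme sends to the RET receptor of the ureteric bud. It stood at 1.49 and 1.21 in the vas deferens and at -0.38 and -0.49 in the epididymis, or 3.45-fold (adjusted p = 3.80e-06). Gfra2, a co-receptor of the same family, stood at 1.76 and 1.65 against -0.22 and 0.07 (3.44-fold), but the median of its 4 other probe sets was -0.20. The receptor Ret (-0.55, adjusted p = 0.29) and the co-receptor Gfra1 (-0.52, adjusted p = 0.19) were not called. Fgf1 was 2.28-fold higher in the epididymis. Of the Sprouty genes, feedback inhibitors of this pathway, Spry1 was 1.68-fold higher in the epididymis and Spry2 2.02-fold higher in the vas deferens, each call lost without 1 array or another, and the other probe set of Spry2 differed by 0.08. Fgf10 (0.29), Fgfr1 (0.39) and Fgfr2 (0.33) were not called.

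In BMP and TGF-beta signalling, 5 of 33 genes were higher in the epididymis and 2 in the vas deferens. The first were ligands and a receptor: Bmp6 at -0.14 and -0.22 against -1.52 and -1.57 (2.57-fold), Inhbb, an activin subunit (2.32-fold, with another probe set at 0.07), Bmp2 (1.88-fold), Tgfb3 (0.62) and the co-receptor Tgfbr3 (1.61-fold). The 2 higher in the vas deferens were Id2 (2.40-fold) and Id1 (1.77-fold), which encode inhibitors of helix-loop-helix factors and are known targets of BMP. The called BMP ligands and these targets thus stood higher in opposite segments. Bmp4 (-0.04) and the receptors Bmpr1a (0.10) and Bmpr2 (0.01) were not called. All but Tgfb3 of the 7 were called whichever array was left out.

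Of 25 insulin-like growth factor and imprinted genes, 4 were higher in the epididymis and 0 in the vas deferens. Irs4, an adaptor of the insulin and IGF1 receptors, stood at 2.76 and 2.68 in the epididymis and at -0.06 and -0.28 in the vas deferens, or 7.43-fold (adjusted p = 5.22e-08). Its other probe set differed by 0.02. Igf1 (2.90-fold, adjusted p = 0.031), Igfbp7 (1.74-fold) and Zim1 (1.62-fold) made up the rest, and the calls of Igf1 and Zim1 were lost whichever array was left out. With every probe set tested, the other probe sets of Igf1 were called as well, at 1.62, 1.45 and 1.32. Those of Igfbp7, at 0.46 and 0.11, were not. The other pathways held fewer calls. Hedgehog signalling had 1 of 13 (Boc, higher in the epididymis by 0.58 on the log2 scale), Notch signalling 2 of 18 (Nrarp and Notch2, both 1.57-fold higher in the vas deferens) and retinoid metabolism 1 of 18. The last was Crabp1, which binds retinoic acid in the cytoplasm, at 2.34 and 2.44 against 1.41 and 1.43, or 1.96-fold higher in the epididymis. None of 21 planar cell polarity genes was called, where 3.79% of all genes were, and they lay between -0.45 and 0.40. The other probe set of Notch2 differed by 0.02 and that of Nrarp by -0.17, and neither was called. Of the 3 hedgehog and Notch genes, none was called in every fit with 1 array left out.

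**Figure D3:**
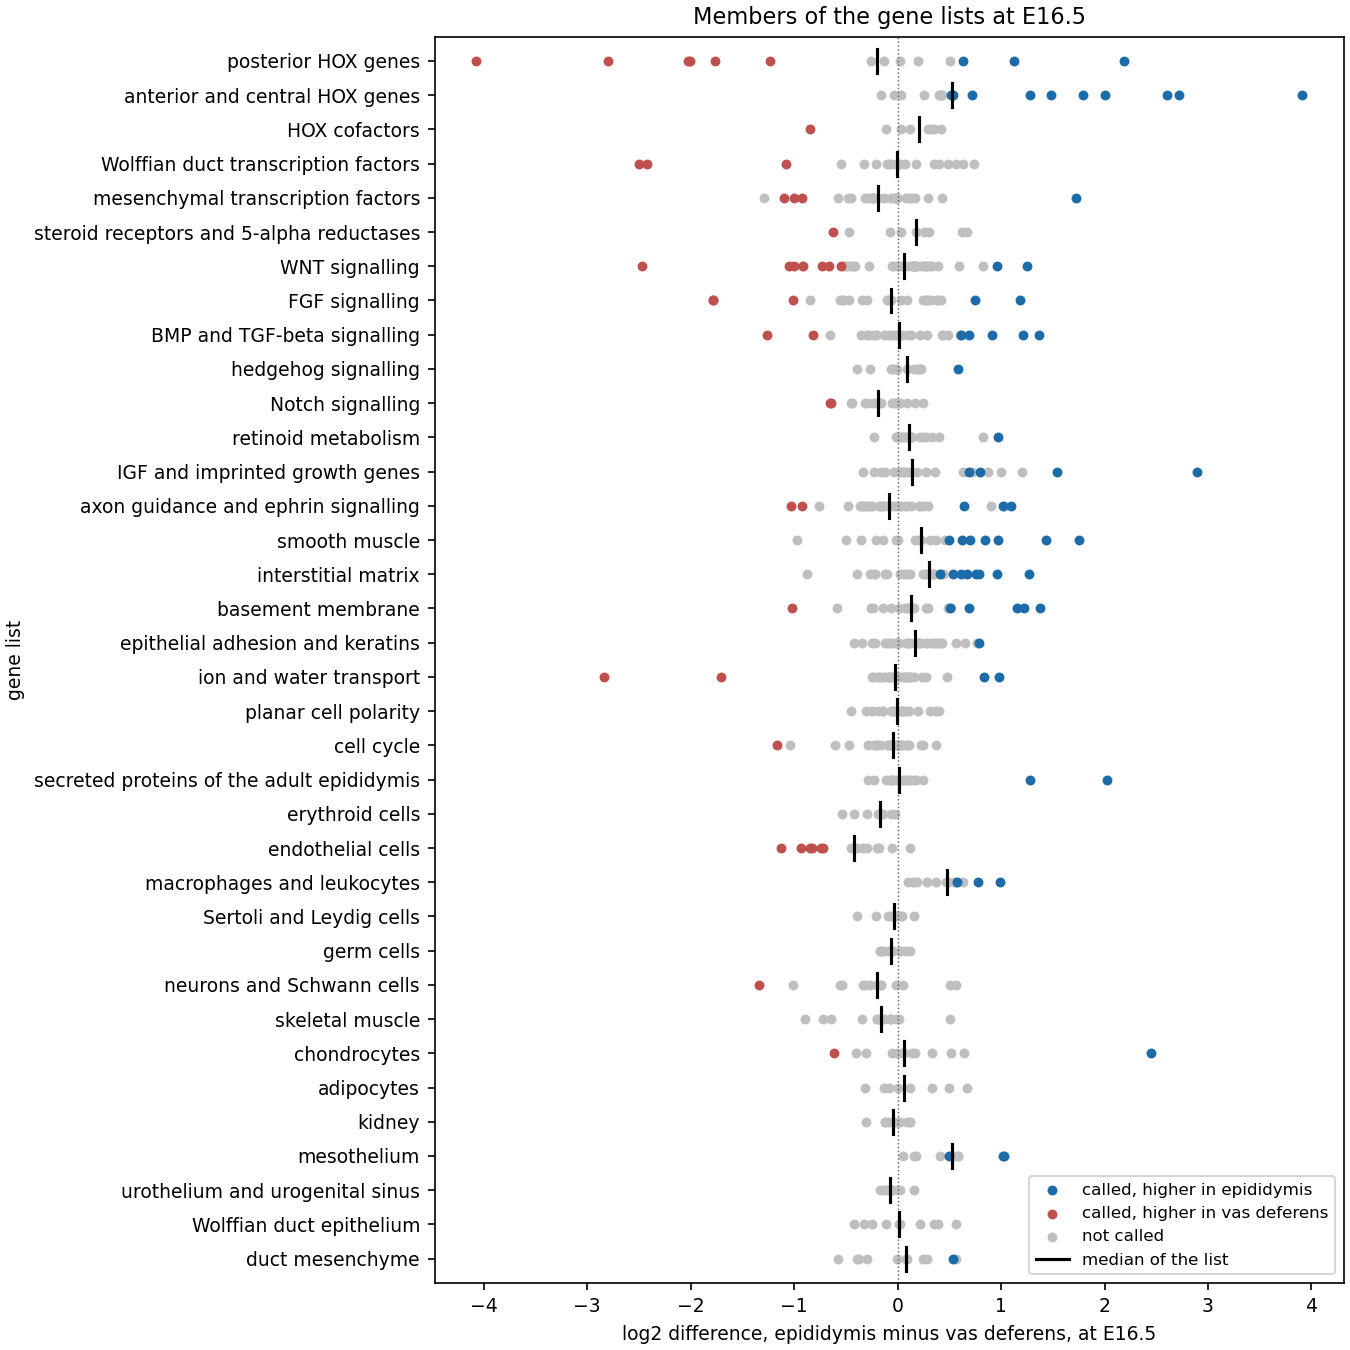
Log2 difference between epididymis and vas deferens at E16.5 (x axis) of each measured member of the gene lists (y axis), blue where called higher in the epididymis, red where called higher in the vas deferens, grey where not called, with a bar at the median of the list. Called points of smooth muscle and interstitial matrix lie on the epididymis side, those of endothelial cells on the vas deferens side, and planar cell polarity has none.

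The called genes of smooth muscle and interstitial matrix were all higher in the epididymis. Of 21 smooth muscle genes, 7 were higher there and 0 in the vas deferens, with a median of 0.22 (4 of the 7 whichever array was left out). Members of this list lay between -0.97 and 1.75, so uncalled ones leaned toward the vas deferens too. Myocd, the coactivator that switches on the smooth muscle programme, stood at 1.80 and 1.69 in the epididymis and at 0.36 and 0.26 in the vas deferens (2.71-fold, adjusted p = 0.000363). Tagln, which encodes the actin-binding protein transgelin, stood at 0.51 and 0.45 against -0.45 and -0.54 (1.96-fold). Acta2, smooth muscle actin, stood at 0.22 and 0.10 against -0.45 and -0.63 (1.62-fold). Other probe sets of Acta2 differed by 0.18 and 0.48 and were not called. In Myocd, Tagln and Acta2, as in every called gene, the 4 arrays fell into separate groups by segment. Myh11, the smooth muscle myosin, was 3.36-fold higher, but its other probe set differed by -0.07. Cnn1 was 1.80-fold, Des 1.54-fold and Myl9 0.50 on the log2 scale higher. Des lost the call whichever array was left out, and Cnn1 and Myl9 lost it without 1 array or another. The other probe set of Des differed by -0.18. Actg2 (0.37) and Mylk (-0.02) were not called.

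Of 28 genes of the interstitial matrix, 8 were higher in the epididymis and 0 in the vas deferens, with a median of 0.30 (2 of the 8 in every fit with 1 array left out). The list ran from -0.87, a member not called, to 1.27. Postn, a matrix protein of mesenchyme, led with -0.26 and -0.17 against -1.60 and -1.37 (2.42-fold, adjusted p = 0.000116), ahead of Thbs2 (1.94-fold), Col6a2 (1.72-fold) and Col12a1 (1.70-fold). The major fibrillar collagens Col1a1 (0.25) and Col3a1 (0.28) were not called. Basement membrane genes were divided, with 5 of 22 higher in the epididymis and 1 in the vas deferens. Col4a6 stood at 1.32 and 1.29 against 0.03 and -0.18 (2.60-fold), Nid2, a nidogen, was 2.33-fold and Lama1 2.22-fold higher in the epididymis, and Lama3 was 2.02-fold higher in the vas deferens. In Col4a6 a further probe set gave 1.27, while the other probe set of Lama3 differed by -0.13 and was not called. Col4a5 (1.62-fold) and Lama5 (1.42-fold) were higher in the epididymis as well, but not called whichever array was left out.

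Among markers of other cells, those of mesothelium and leukocytes leaned toward the epididymis, like the called smooth muscle and interstitial matrix genes. Endothelial markers leaned toward the vas deferens. All 10 measured mesothelial markers had a difference above 0 (median 0.52), and 3 were called, Gpm6a (2.04-fold), Upk3b (2.02-fold) and Podxl (1.42-fold). Their median value per array was 0.25 and 0.30 in the epididymis and -0.25 and -0.26 in the vas deferens. The other probe set of Podxl differed by 0.15 and was not called. All 16 macrophage and leukocyte markers were also above 0 (median 0.48), with C1qc (1.98-fold), C1qa (1.72-fold) and Mrc1 (1.49-fold) called and per-array medians of -0.01 and 0.11 against -0.53 and -0.27. C1qa was the only 1 of these 6 called whichever array was left out. In the other direction, 6 of 14 endothelial markers were higher in the vas deferens and 0 in the epididymis, with a median of -0.42 and per-array medians of -0.05 and -0.01 in the epididymis against 0.52 and 0.48. Emcn (2.19-fold), Tek (1.92-fold), Flt1 (1.79-fold), Cldn5 (1.77-fold), Eng (1.67-fold) and Plvap (1.65-fold) were called, Emcn whichever array was left out, while Pecam1 (-0.20), Kdr (-0.17) and Cdh5 (0.12) were not. Their part in the other differences was not tested. In whole segments, fewer cells of a type and less RNA per cell cannot be told apart.

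The lists of tissue dissected along with the ducts gave few calls. None was called of 8 erythroid, 10 Sertoli and Leydig, 10 germ cell, 15 skeletal muscle, 8 adipocyte, 11 kidney and 11 urothelial markers, in any direction. Over all genes 3.79% were called, so the lack of a call in lists this short says little. Chondrocyte markers had 2 of 13, Cnmd in the epididymis and Matn4 in the vas deferens. Of 10 markers of Wolffian duct epithelium none was called (median 0.02), and of 11 markers of duct mesenchyme only Dcn was, 1.45-fold higher in the epididymis.

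Cnmd, chondromodulin, an inhibitor of vessel growth, was among the leading epididymis genes, at 0.59 and 0.63 against -2.20 and -1.49 (5.47-fold). Its low values in the vas deferens stood beside the higher endothelial markers there, and their relation was not tested.

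Leading genes of the vas deferens included adhesion molecules and an RNA-binding protein. Cdh10 and Pcdh10, both cadherins, were 5.48-fold and 5.63-fold higher, and Elavl2, the RNA-binding protein, 5.18-fold. Cntn6 and Nrcam, adhesion molecules of the immunoglobulin family, were 4.62-fold and 4.12-fold higher. Elavl2 stood at 2.81 and 2.83 in the vas deferens against 0.39 and 0.50 in the epididymis. Of 15 markers of neurons and Schwann cells, 1 was called, Stmn2, at 3.19 and 3.29 in the vas deferens and 1.80 and 1.996 in the epididymis (2.53-fold, adjusted p = 0.00205). Both segments thus lay above the series median for Stmn2. The list had a median of -0.20, Gap43 differed by -1.01 (adjusted p = 0.056), and the Schwann cell markers Sox10 (-0.33) and Erbb3 (-0.16) were not called. Nefl (0.56) and Nefm (0.505), of the same list, leaned toward the epididymis and were not called either. Among 38 axon guidance genes, Unc5c (2.14-fold), Sema3e (2.02-fold) and Slit2 (1.56-fold) were higher in the epididymis. Slit3 (2.04-fold) and Dcc (1.90-fold) were higher in the vas deferens. Slit2 lost the call whichever array was left out, and Dcc lost it without 1 array or another. The other probe sets of Sema3e differed by 0.34, 0.25 and 0.39 and were not called.

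Other leading genes of the vas deferens encode secreted or membrane proteins. A2m, a protease inhibitor of plasma, stood at 3.04 and 2.91 against 0.33 and 0.27 in the epididymis (6.38-fold, adjusted p = 5.69e-08). Chodl, a membrane lectin, stood at 2.04 and 1.85 against -0.70 and -0.76 (6.36-fold). Both pairs of arrays lay far apart in relation to the spread within a segment. Rmdn2, which encodes a microtubule-associated protein, was 6.42-fold higher, and its 3 other probe sets had a median difference of -2.64. Saa1, an acute phase protein, was 4.78-fold higher, and its probe sets may also read Saa2, its near-identical neighbour. Rassf9 was 4.39-fold higher, with another probe set at -1.97. Rgs5, known from pericytes, was 4.17-fold higher, in the segment where the endothelial markers were. Anp32a, called at 4.29-fold (adjusted p = 0.041), lost the call whichever array was left out. Its other probe sets had a median of 0.39. With every probe set tested, 1 of them was called toward the epididymis, at 0.63 (adjusted p = 0.00282).

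In ion and water transport, 4 of 34 genes were called, 2 in each direction. Slc26a7, an anion exchanger, stood at 2.97 and 2.92 in the vas deferens against 0.16 and 0.05 in the epididymis (7.16-fold, adjusted p = 8.79e-08), and its other probe set differed by -0.31. Kcnd2, a potassium channel, was 3.27-fold higher in the vas deferens, while Fxyd3, a regulator of the sodium pump, was 1.97-fold and Slc9a3r1, a scaffold of apical transporters, 1.79-fold higher in the epididymis, the last losing the call without 1 of the arrays. Of 37 epithelial adhesion genes and keratins, only Krt14 was called, at 0.00 and 0.27 against -0.62 and -0.68 (1.73-fold higher in the epididymis). This was 2.70% of the list, near the 3.79% of all genes. Cdh1 (0.01), Epcam (0.39) and Krt8 (0.22) were not called. Cldn11, a tight junction gene on none of the lists, stood at 0.61 and 0.78 in the epididymis against -1.33 and -1.15 (3.82-fold).

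Among 22 secreted proteins of the adult epididymis, 2 were called, both higher in the epididymis. Gpx3, a glutathione peroxidase, had values of -0.15 and -0.11 against -1.56 and -1.26 (2.42-fold, adjusted p = 2.15e-06). Lcn2, a lipocalin that binds iron carriers, had values of 0.81 and 0.56 against -1.74 and -0.94 (4.07-fold, adjusted p = 0.00197). The vas deferens arrays differed from each other by more for Lcn2 than for Gpx3, and without vas deferens replicate 1 the call of Lcn2 was lost (adjusted p = 0.066). Of 31 cell cycle genes, only Ccnd1 was called (3.23%, near the 3.79% of all genes). It was 2.24-fold higher in the vas deferens, and the call was lost without 1 array or another.

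The remaining leading genes of the epididymis serve varied functions. Adamts16, a secreted metalloprotease, was 6.07-fold higher, at 0.53 and 0.51 against -2.51 and -1.66, but its other probe set differed by 0.01. Shisa3, which holds back maturation of WNT and FGF receptors, stood at 1.62 and 1.60 against -1.05 and -0.49 (5.22-fold), and its other probe set gave 2.34. Unc13c, known for priming synaptic vesicles, was 5.49-fold higher. Plcxd3 was 4.98-fold, Brinp3 4.38-fold, Ndnf, a secreted neurotrophic factor, 3.56-fold, the kinase Stk26 3.56-fold and Ano4, of the anoctamin family, 3.51-fold higher. The other probe set of Ndnf differed by -0.07 and that of Stk26 by 1.55. Stk26 lost its call whichever array was left out.

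At E14.5, measured on other arrays and tested in the same fit, 883 genes (4.85%) differed between the same segments. Of the 689 genes called at E16.5, 292 were called with the same sign there, which is 42.4% of the calls at E16.5 and 33.1% of those at E14.5, and 23 were called with the opposite sign. The difference itself changed between the ages for 326 genes (1.79%), becoming more positive for 94 and more negative for 232. Without epididymis E14.5 replicate 1 that number was 1242, without epididymis E16.5 replicate 2 it was 150 and without vas deferens E14.5 replicate 1 it was 169, and the 2 epididymis arrays of E14.5 correlated at 0.383, the lowest of all groups. The split of those 1242 was turned, with 838 more positive and 404 more negative. Of the 2 arrays it was replicate 2 whose control probe sets stood apart, with 5' minus 3' differences of -0.84 for added RNAs, -0.54 for Gapdh and -0.81 for Actb, against 0.30, 0.05 and 0.18 in replicate 1. Without replicate 2, 401 genes changed, 97 more positive and 304 more negative. With quantile normalization 767 genes changed, 340 more positive and 427 more negative. With the mean of a gene's probe sets 162 changed, 82 more positive and 80 more negative, so the lean toward negative changes was not seen there.

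**Figure D4:**
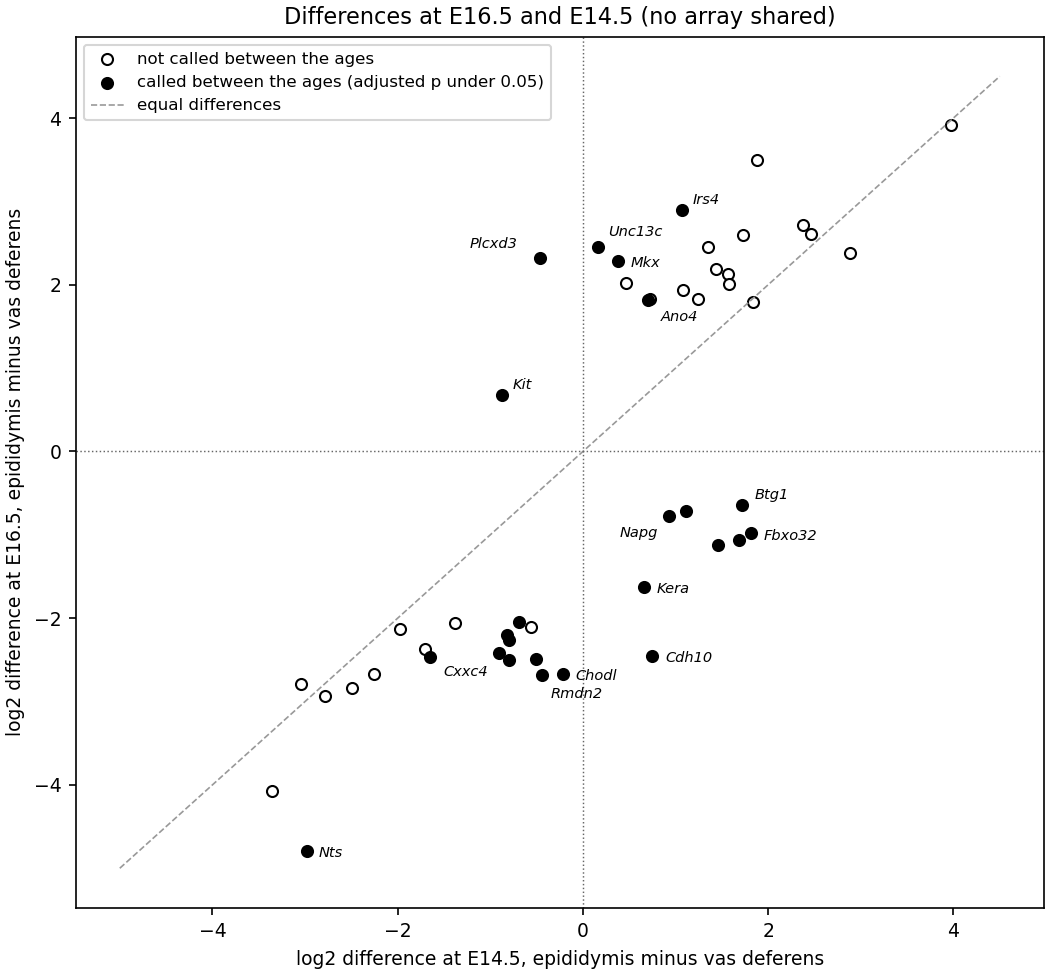
Log2 difference between epididymis and vas deferens at E14.5 (x axis) and E16.5 (y axis) for the leading genes of E16.5 and the 10 genes of smallest p in the comparison of the ages, filled where the ages differ at an adjusted p under 0.05, with a dashed line of equal differences. Hoxc8 lies near the line at 3.97 and 3.91, while Cdh10 (0.75 and -2.45) and Plcxd3 (-0.46 and 2.32) lie far from it.

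Of the 33 HOX genes, 15 were called at E14.5, and 14 of the 19 called at E16.5 were among them with the same sign. Hoxa2, Hoxa9, Hoxb4, Hoxb6 and Hoxc10 were called at E16.5 and not at E14.5. Hoxc8 differed by 3.97 and 3.91 at the 2 ages, Hoxa11 by -3.04 and -2.80, and Hoxd13 by -3.36 and -4.07, and the ages were not called different for any of these (adjusted p = 0.99, 0.87 and 0.23). The ages were called different for 3 HOX genes. Of these, Hoxc10 had values at E14.5 of 1.59 and 1.80 in the epididymis and 1.89 and 1.95 in the vas deferens. By E16.5 the vas deferens stood at 0.35 and 0.51 and the epididymis at 1.51 and 1.59, and the gap had changed by 1.35 ± 0.20 (adjusted p = 0.00146). The epididymis arrays of the 2 ages overlapped, while those of the vas deferens did not. The difference in Hoxb6 changed from -0.40 to 0.52 (adjusted p = 0.012). That in Hoxd3 changed from -0.84, called at E14.5, to 0.26, not called at E16.5 (adjusted p of the change 0.00506).

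The ages differed for 5 of the 20 leading epididymis genes of E16.5 and for 11 of the 20 leading vas deferens genes, in each case with the larger gap at E16.5; genes picked for a large gap at E16.5 favour that direction. Irs4 differed by 1.07 at E14.5 and by 2.89 at E16.5 (change of 1.83 ± 0.27, adjusted p = 0.00147), as its epididymis arrays went from 0.23 and 0.02 to 2.76 and 2.68. Unc13c (0.16 and 2.46), Mkx (0.38 and 2.29) and Plcxd3 (-0.46 and 2.32) had no called difference at E14.5. In the vas deferens, Chodl stood at 0.05 and 0.16 at E14.5 and at 2.04 and 1.85 at E16.5, and its gap changed from -0.22 to -2.67 (adjusted p = 0.000356). Eya1 stood at 1.19 and 1.77 and then at 2.58 and 2.63, with the gap going from -0.80 to -2.50 (adjusted p = 0.00178). Nts widened from -2.98 to -4.79 (adjusted p = 0.021), and Gdnf from -0.56 to -1.79 (adjusted p = 0.013).

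Cdh10 turned its sign. At E14.5 it stood at 1.54 and 1.29 in the epididymis and 0.55 and 0.77 in the vas deferens, and at E16.5 at 0.12 and 0.22 against 2.79 and 2.46, a change of -3.20 ± 0.24 (adjusted p = 2.05e-06). The segments exchanged places. Of its 3 other probe sets, 1 was also called at E16.5, at -1.69 (adjusted p = 1.40e-06), and the others differed by -0.34 and -0.01. In smooth muscle, Tagln differed by -0.15 at E14.5 and 0.97 at E16.5 (adjusted p of the change 0.0022), and Myh11 by 0.69 and 1.75 (0.022), whereas Acta2 differed by 0.64 and 0.70 (0.96). For Wnt4 (1.05 and 0.96) and Rspo1 (1.43 and 1.25) no change was called (adjusted p = 0.97 and 0.90).

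**Figure D5:**
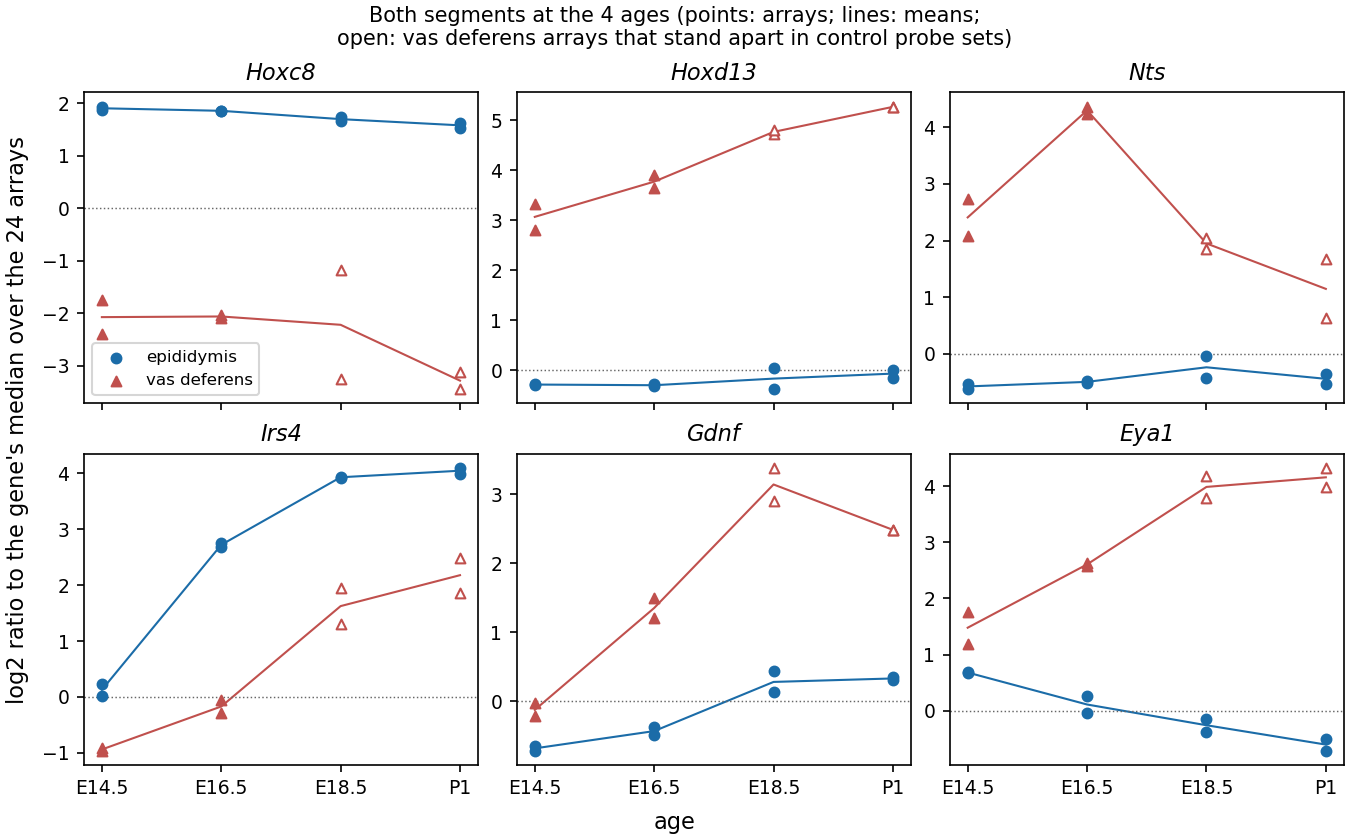
Log2 ratio of each array (y axis) of the epididymis (circles) and vas deferens (triangles) at the 4 ages (x axis) for 6 genes, with lines through the group means and open symbols for vas deferens arrays whose control probe sets stand apart. Hoxc8 and Hoxd13 are separate at each age, and in Irs4, Gdnf and Eya1 the gap at E16.5 is wider than at E14.5.

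At E18.5 and P1 the vas deferens arrays stand apart in their control probe sets, so values from those ages are given without a test. The leading genes of the epididymis kept their sign in 20 of 20 cases at E18.5 and in 19 of 20 on P1, and those of the vas deferens in 19 of 20 at both ages. Hoxd13 differed by -4.94 and -5.34 at these ages and Eya1 by -4.25 and -4.77, both farther from 0 than at E16.5, while Nts differed by -2.19 and -1.59. Lcn2 differed by 3.83 and 5.05, and Myh11 by 2.58 and 3.11. Wnt4 (0.10 and -0.09) and Ano4 (0.13 and -0.28) lay near 0.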

How the data were processed

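Per the submitters' processing notes, the authors used RMA (version not given in the sources used here), and per the labels RNA was extracted with Trizol and labelled with biotin. The deposited values are, as their medians over the 24 arrays show (1 within 1e-04 for 45081 of 45101 probe sets), each a linear ratio to the probe set's median. Their log2 was taken, with no further normalization and no filter, since ratios hold no level; the number of arrays limits the precision.

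After 64 control probe sets were left out, 34945 probe sets with 1 gene symbol in the platform annotation were used, and 932 with several and 9160 with none were not. Of the former, 34741 matched an Entrez identifier of the RefSeq table (GRCm38.p6), with 0 changes of symbol. Each gene took the probe set of largest variance over the 12 arrays that were neither compared nor among those that stand apart in control probe sets (efferent duct E14.5 and E16.5, vas deferens E18.5 and P1). The 12 include epididymis E14.5 replicate 2, which also stands apart from its replicate in them. This gave 18193 genes (9010 had more than 1 probe set).

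A mean per group was fitted to all 24 arrays with limma 3.58.1 in R 4.3.3, with 12 residual degrees of freedom and empirical Bayes moderation. Contrasts were epididymis minus vas deferens at E16.5, and that difference minus the one at E14.5. Tests were two-sided, with Benjamini-Hochberg adjustment over 18193 genes and a threshold of 0.05; the code was tested on simulated data. Genes named were the 20 of largest called difference per direction without overlap of arrays, up to 6 called members of each list, every HOX gene and any member of a list of at most 16 measured, the 10 genes of smallest p between the ages, and ligands or receptors of named list members; predicted genes and families with shared probe sets were skipped among the leading genes and those between the ages. Unlisted genes or uncalled members given for comparison were picked after their values were seen. The comparison, the lists and the rule were chosen with earlier results of these data known. List genes without a value were not analysed here.

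Arrays with the same replicate number did not deviate together (r of -0.24, 0.04, 0.05 and 0.02 at the 4 ages), so the numbers were not taken as pairs. Alternatives were quantile normalization, array centring, other choices of probe set, fewer arrays in the fit, robust moderation, a replicate block, a variance filter and leaving out each array. Promoter sequences are those of RefSeq, where 13 and 16 of the 20 leading genes of each direction matched.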

Additional observations from a re-analysis of the deposited data

Results flagged for a closer look

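The gap between epididymis and vas deferens differed between E16.5 and E14.5 for 326 genes by limma's test of the difference itself. The 10 of smallest p are given here as the log2 difference at E16.5 minus that at E14.5. Cdh10, a cadherin, changed by -3.20, Rmdn2 by -2.25 and Kera, which encodes the matrix proteoglycan keratocan, by -2.29. Kit, a receptor kinase, changed by 1.55, from -0.87 at E14.5 to 0.67 at E16.5, with the vas deferens at -0.06 and 0.06 and then at -0.78 and -0.70. Slc8a1, a sodium-calcium exchanger, changed by -2.75, Fbxo32 by -2.80, Btg1 by -2.35, Rbm5 by -2.58, B3galnt2 by -1.82 and Napg by -1.71. In these last 6 genes the vas deferens arrays of E14.5 were below the series median, at -2.34 and -1.80 for Slc8a1 and -2.15 and -1.72 for Fbxo32. Other probe sets of the same 6 genes had median differences at E16.5 between -0.09 (Slc8a1) and 0.23 (Fbxo32), although 1 other probe set of Slc8a1 was called, at -1.07 (adjusted p = 0.00134), and the disagreement between probe sets of a gene was not tested.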

How the results depend on the processing

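Of 132 named called genes, 80 kept the call and 131 the sign over 15 settings; Fbxo32 reversed to 0.32 (adjusted p = 0.40) with the probe set of largest variance over all 24 arrays. The 689 calls at E16.5 became 1444 with quantile normalization, 1111 of 34945 with every probe set tested, 1865 with only the 4 arrays fitted and 1869 with a replicate block in those 4. In the other settings they numbered 654 to 877, 654 of them from the replicate block in the fit of 24 arrays, and 616 of the 689 were called there too. Without 1 array they were 357 to 427, and the lone array of a group was then assumed to vary like the other groups. The 326 genes that changed between the ages became 767 (340 more positive, 427 more negative) with quantile normalization, 162 with the mean of a gene's probe sets, 88 with only the 8 arrays fitted and 283 with the replicate block; without 1 array they were 150 to 1242. With the probe set of each gene chosen over 11 arrays, leaving out epididymis E14.5 replicate 2 (an alternative added after seeing the data), the counts were 717 and 353, and 1199 genes took another probe set. The causes were not tested. The ratios give no signal over background, so a bound on low genes could not be set.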

Other observations

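Another 18 genes differed by 2-fold or more at E16.5 without passing the test. The imprinted genes Plagl1 (1.20, adjusted p = 0.30) and Peg3 (1.00, adjusted p = 0.084) had differences toward the epididymis. Peg3 stood at 0.25 and 0.25 in the epididymis against -0.77 and -0.73 in the vas deferens. Foxp1, a forkhead factor, leaned toward the vas deferens (-1.01, adjusted p = 0.059), and the median of its 7 other probe sets was -1.02. The alarmins S100a8 and S100a9 were uneven within the vas deferens, at 0.13 and 1.60 and at 0.89 and 1.93, and so was Afp, alpha-fetoprotein, at 1.12 and 3.01.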
